A study of Mus musculus with 12 samples.

Results

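The MHC class II genes were examined here in libraries labelled as mouse oral tumours treated with IL-10-Fc, an antibody to CSF1R, or the fusion of both. The 10 members were chosen by symbol from the 55401 genes of the FPKM table (fragments per length of transcript and number of mapped fragments). They are H2-Ea, H2-Eb1, H2-Aa, H2-Ab1, H2-DMa, H2-DMb1, H2-DMb2, H2-Oa, Cd74 and Ciita, and all 10 passed the filter on low values, which 15813 genes passed. By the labels, MTC-Q1 cells, a mouse oral cancer line (subline Q1-2), were implanted orthotopically in C57BL/6 mice, which the study obtained at 6 to 8 weeks of age. Treatment began at a tumour volume of 100 mm3 and RNA was taken from whole tumour tissue. The labels give 6 doses in one field and 4 in another. Each of the 4 groups had 3 libraries: Ctrl-IgG (labelled as control isotype, IgG1-Fc, 30 mg/kg), aCSF1R (an antibody to the receptor of colony-stimulating factor 1, 30 mg/kg), IL-10-Fc (IL-10 joined to an antibody Fc part, 20 mg/kg) and BF10 (human IL-10 fused to the CSF1R antibody, 36 mg/kg). Doses per weight are those in the methods of the study. IL-10-Fc and BF10 thus share an IL-10 part, and aCSF1R and BF10 share a CSF1R antibody part. Nothing in the labels says whether each library was a separate mouse, so p-values measure the spread between these libraries.

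MHC class II molecules are pairs of an alpha and a beta chain that show peptides to CD4 T cells. In the mouse, I-A is made from H2-Aa and H2-Ab1, and I-E from H2-Ea and H2-Eb1. The invariant chain Cd74 guards the new pair, H2-DM (H2-DMa with H2-DMb1 or H2-DMb2) loads the peptide, and H2-DO, of which H2-Oa is the alpha chain, restrains H2-DM, mainly in B cells. Ciita is the transactivator that switches these genes on together through the X and Y boxes of their promoters, and interferon gamma induces it. Macrophages, dendritic cells and B cells are the usual sources of these transcripts in a tumour, and strains of the b haplotype such as C57BL/6 lack H2-Ea transcripts because of a deletion at its promoter.

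Promoter stretches of 5 members are shown because letters of the X and Y boxes, through which Ciita acts, were sought in them. RefSeq promoter windows (GRCm38.p6) were given for 6 of the 10 members. In the 250 bases before the start, the Y box core CTGATTGG, its inner part ATTGG and the X box core ACNGATG were sought on both strands, ATTGG being contained in CTGATTGG. Of 32851 windows over all genes, 3.83% held CTGATTGG, 33.9% held ATTGG and 8.31% held ACNGATG. The last 150 bases before the start are printed 5′ to 3′ on the gene's strand, with every match in capitals.
H2-Eb1 (chr17:34305717-34305866, plus strand): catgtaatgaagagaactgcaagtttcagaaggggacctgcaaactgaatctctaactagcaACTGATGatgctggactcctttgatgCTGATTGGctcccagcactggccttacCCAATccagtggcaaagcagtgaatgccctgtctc
H2-Aa (chr17:34287824-34287973, minus strand): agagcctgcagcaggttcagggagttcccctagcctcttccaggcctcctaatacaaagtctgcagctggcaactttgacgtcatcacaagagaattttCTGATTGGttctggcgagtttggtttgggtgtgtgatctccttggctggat
H2-Oa (chr17:34092229-34092378, plus strand): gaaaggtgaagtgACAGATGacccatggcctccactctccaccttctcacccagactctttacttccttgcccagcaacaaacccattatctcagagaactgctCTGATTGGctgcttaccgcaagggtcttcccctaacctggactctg
H2-DMb1 (chr17:34153041-34153190, plus strand): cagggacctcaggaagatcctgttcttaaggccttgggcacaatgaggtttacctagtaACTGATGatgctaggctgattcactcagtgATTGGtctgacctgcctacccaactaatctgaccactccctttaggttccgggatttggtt
H2-DMb2 (chr17:34145099-34145248, plus strand): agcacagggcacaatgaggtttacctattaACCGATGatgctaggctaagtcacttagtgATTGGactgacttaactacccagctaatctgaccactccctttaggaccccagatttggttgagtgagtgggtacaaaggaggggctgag
The Y box core lay at positions -62 to -55 in H2-Eb1, -51 to -44 in H2-Aa and -46 to -39 in H2-Oa. H2-DMb1 and H2-DMb2 held the inner part ATTGG instead, at -61 to -57 and -90 to -86. The X box core preceded it at -91 to -85 in H2-DMb1 and -120 to -114 in H2-DMb2, and lay at -88 to -82 in H2-Eb1 and -137 to -131 in H2-Oa. In H2-Aa it matched only on the opposite strand, at -232 to -226, outside the printed stretch. For H2-DMa, 2 windows were given, of which 1 held ATTGG and neither held CTGATTGG or ACNGATG. An X box core ending at most 30 bases before ATTGG on either strand was found in 0.469% of all windows. A match is a string of letters and not a binding site, and no library here measured binding.

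Before the results, 3 features of the libraries bear on the values. The 6 IL-10-Fc and BF10 libraries went against the strain on their labels. H2-Ea (ENSMUSG00000036322, chr17:34341959-34344645, GRCm38) is annotated as a polymorphic pseudogene in the C57BL/6J reference, yet these 6 libraries held it at 553 FPKM or more, while the Ctrl-IgG and aCSF1R libraries held at most 0.27 FPKM. Xist, the transcript of the inactive X chromosome, was 17.1 FPKM or more in the same 6 libraries and at most 0.04 FPKM in the others. The Y-linked Eif2s3y was 4.23 FPKM or more in the others and at most 0.05 FPKM in 5 of the 6, but BF10 replicate 3 held it at 3.29 FPKM beside 23.7 FPKM of Xist. The summed FPKM of 6 simple-epithelium markers (Krt8, Krt18, Krt19, Krt7, Epcam and Cdh1) was 598 to 1577 against 0.90 to 9.11. Of the 6 markers, 5 were called higher in IL-10-Fc and 6 in BF10 against Ctrl-IgG. The study also ran a breast tumour model in BALB/c mice under the same treatments, and whether these 6 libraries came from the model on their labels was not tested. Below, IL-10-Fc and BF10 mean the libraries so labelled, and in every difference given for them an IL-10 part cannot be told apart from what moved with H2-Ea, Xist and the epithelial markers. Secondly, 4 libraries had FPKM sums of 819001 to 976950 against 637596 to 701275 in the other 8. The set of high FPKM sum held replicate 1 of BF10, replicate 2 of Ctrl-IgG, and both replicate 1 and replicate 2 of IL-10-Fc. Mitochondrial genes took 6.57% to 9.04% of their FPKM against 2.99% to 3.61%, and genes under 1000 bases took 35.0% to 43.3% against 24.0% to 26.3%. Read depth relative to Ctrl-IgG replicate 1, estimated from the steps between low values, ran from 0.94 to 1.41, and absolute depth is unknown. Thirdly, Ctrl-IgG replicate 3 and aCSF1R replicates 1 and 2 held summed FPKM of 747 to 1798 for 7 keratinocyte markers and of 562 to 923 for 6 skeletal muscle markers, against 4.84 to 37.5 and 6.64 to 89.5 in the other 9. Of the keratinocyte markers 0 of 7 were called in aCSF1R, IL-10-Fc or BF10 against Ctrl-IgG, and of the muscle markers 1 of 6, Mylpf, was called lower in IL-10-Fc and 0 in aCSF1R or BF10. Among the 6 libraries without an IL-10 part, these 3 were the highest for Cd74 (247 to 347 against 86.3 to 165 FPKM), H2-Eb1 (101.3 to 106.1 against 48.9 to 71.5), H2-Ab1 (64.2 to 75.9 against 27.8 to 41.2) and H2-DMb1 (36.3 to 55.2 against 17.1 to 34.7), and overlapped the other 3 for the remaining 6 members. The part of skin and muscle RNA in these values was not tested.

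The alpha chain of I-E divided the libraries most. H2-Ea was 0.27, 0.14 and 0.15 FPKM in replicates 1 to 3 of Ctrl-IgG. In aCSF1R it was 0.07, 0.17 and 0.04 FPKM. The IL-10-Fc libraries held 1688, 1727 and 561 FPKM of it, and the BF10 libraries 1089, 564 and 553 FPKM. The lowest library with an IL-10 part stood 2047-fold above the highest without one. On the log2(FPKM + 1) scale, which understates the change of low genes, H2-Ea rose by 9.96 in IL-10-Fc (SE 0.41, limma adjusted p = 3.6e-07) and by 9.20 in BF10 against Ctrl-IgG (SE 0.41, limma adjusted p = 5.8e-07). Its partner H2-Eb1 (chr17:34305867-34316674), the beta chain of I-E, was transcribed in every library. H2-Eb1 was 64.0, 71.5 and 105.9 FPKM in Ctrl-IgG, 101.3, 106.1 and 48.9 in aCSF1R, 371, 241 and 620.5 FPKM in IL-10-Fc, and 365, 599 and 574 FPKM in BF10. All 6 libraries with an IL-10 part lay above all 6 without. H2-Eb1 rose by 2.27 in IL-10-Fc (SE 0.40, limma adjusted p = 0.0017) and by 2.66 in BF10 against Ctrl-IgG (SE 0.40, limma adjusted p = 9.0e-04).

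Both chains of I-A were higher with an IL-10 part, with no overlap between the 6 libraries on either side. H2-Aa (chr17:34282744-34287823), the alpha chain, was 109, 250.5 and 162 FPKM in Ctrl-IgG, 184, 180.4 and 104 in aCSF1R, 1759.9, 1597 and 810.2 FPKM in IL-10-Fc, and 1279.7, 788 and 815 FPKM in BF10. Within the libraries with an IL-10 part, H2-Aa was highest in those of high FPKM sum. It rose by 3.00 in IL-10-Fc (SE 0.40, limma adjusted p = 2.9e-04) and by 2.51 in BF10 against Ctrl-IgG (SE 0.40, limma adjusted p = 0.0012). H2-Ab1 (chr17:34257689-34269419), the beta chain, was 41.2, 27.8 and 75.9 FPKM in Ctrl-IgG, 64.2, 74.7 and 33.7 in aCSF1R, 212, 164 and 489 FPKM in IL-10-Fc, and 175, 501 and 488 FPKM in BF10. Here the order was the other way, and the libraries of high FPKM sum were the lowest of each group. H2-Ab1 rose by 2.51 in IL-10-Fc (SE 0.55, limma adjusted p = 0.0054) and by 2.95 in BF10 against Ctrl-IgG (SE 0.55, limma adjusted p = 0.0029).

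**Figure D1:**
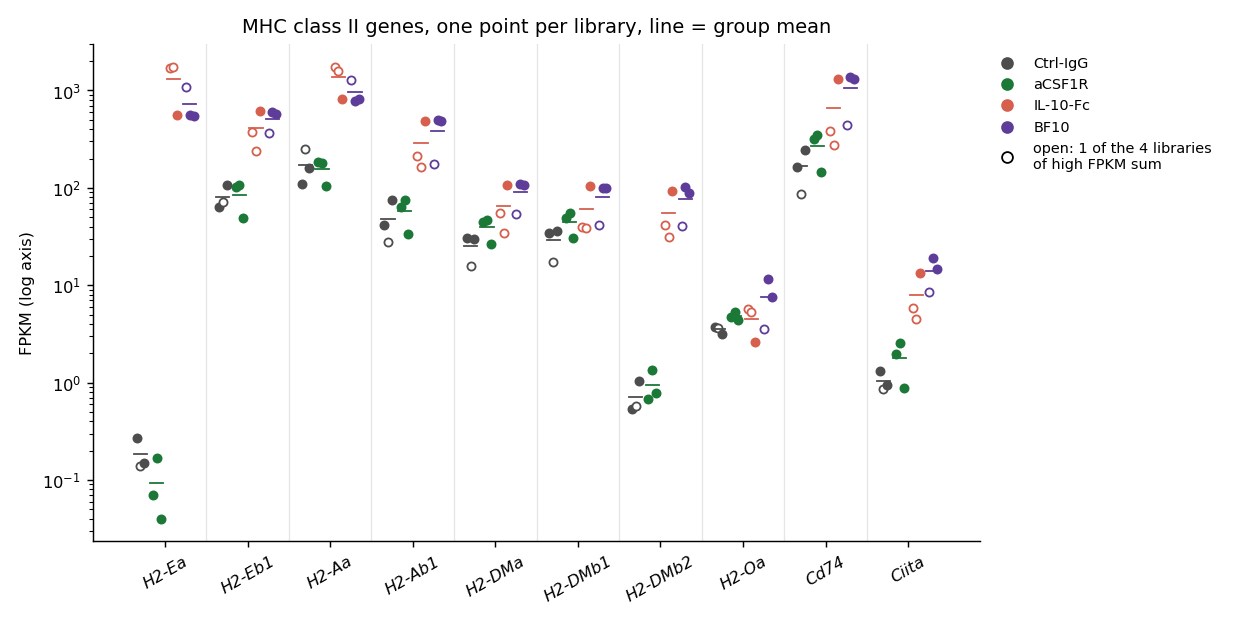
FPKM of the 10 MHC class II genes (log axis), 1 point per library and a line at each group mean, with open points for the 4 libraries of high FPKM sum. H2-Ea sits at or below 0.27 FPKM in Ctrl-IgG and aCSF1R and at or above 553 FPKM in IL-10-Fc and BF10, and H2-DMb2 shows a like gap at a lower level, whereas H2-DMa, H2-DMb1, H2-Oa and Cd74 overlap.

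Of the H2-DM chains, only H2-DMb2 separated the libraries fully. H2-DMb2 (chr17:34143307-34151555), a beta chain, was 0.53, 0.58 and 1.05 FPKM in Ctrl-IgG, 0.68, 1.34 and 0.79 in aCSF1R, 41.7, 31.4 and 92.4 FPKM in IL-10-Fc, and 40.6, 102.8 and 89.0 FPKM in BF10. It rose by 4.89 in IL-10-Fc (SE 0.43, limma adjusted p = 2.9e-05) and by 5.42 in BF10 against Ctrl-IgG (SE 0.43, limma adjusted p = 1.8e-05). Its neighbour H2-DMb1 (chr17:34153072-34160230), the other beta chain, was 34.7, 17.1 and 36.3 FPKM in Ctrl-IgG, 49.4, 55.2 and 30.5 in aCSF1R, 39.4, 39.1 and 104 FPKM in IL-10-Fc, and 41.5, 98.95 and 100.6 FPKM in BF10, so that the groups overlapped. H2-DMb1 did not pass the test in IL-10-Fc (log2 fold change 0.94, SE 0.48, limma adjusted p = 0.15) or BF10 (1.39, SE 0.48, limma adjusted p = 0.056). The GENCODE M21 transcripts of H2-DMb1 and H2-DMb2 share 254 sequences of 75 bases, the read length, which are 15.8% and 14.6% of those each gene holds, so reads there could be assigned to either gene and both values are uncertain to that extent. No such sequence was shared by H2-Ea with H2-Aa or by H2-Eb1 with H2-Ab1. H2-DMa (chr17:34119541-34139101), the alpha chain, was 30.7, 15.8 and 29.6 FPKM in Ctrl-IgG, 45.02, 46.5 and 26.5 in aCSF1R, 55.8, 34.6 and 105.9 FPKM in IL-10-Fc, and 54.1, 108 and 108 FPKM in BF10. It rose by 1.78 in BF10 against Ctrl-IgG (SE 0.44, limma adjusted p = 0.013) and did not pass in IL-10-Fc (1.24, SE 0.44, limma adjusted p = 0.051). The call in BF10 was lost without Ctrl-IgG replicate 2 (1.48, limma adjusted p = 0.051) or BF10 replicate 2 (1.61, limma adjusted p = 0.057).

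Cd74 (chr18:60803848-60812652), the invariant chain, was 165, 86.3 and 247 FPKM in Ctrl-IgG. The aCSF1R libraries held 315, 347 and 145 FPKM of it, the IL-10-Fc libraries 380.0, 278 and 1316 FPKM, and the BF10 libraries 447, 1391 and 1322 FPKM. Replicate 2 of IL-10-Fc lay below 2 of the aCSF1R libraries, and the 3 highest libraries were those with an IL-10 part outside the set of high FPKM sum. Cd74 rose by 2.61 in BF10 against Ctrl-IgG (SE 0.65, limma adjusted p = 0.014) and did not pass in IL-10-Fc (1.76, SE 0.65, limma adjusted p = 0.059). Leaving out Ctrl-IgG replicate 2, BF10 replicate 2 or BF10 replicate 3 ended the call in BF10 (2.21 to 2.37, limma adjusted p = 0.051 to 0.059). The transactivator Ciita (ENSMUSG00000022504, chr16:10480059-10528418) had, with H2-Oa, the lowest levels of the members in the libraries with an IL-10 part. Ciita was 1.31, 0.87 and 0.95 FPKM in Ctrl-IgG, 1.95, 2.55 and 0.89 in aCSF1R, 5.79, 4.46 and 13.3 FPKM in IL-10-Fc, and 8.56, 19.0 and 14.6 FPKM in BF10, with no overlap between libraries with and without an IL-10 part. It rose by 1.99 in IL-10-Fc (SE 0.40, limma adjusted p = 0.0034) and by 2.82 in BF10 against Ctrl-IgG (SE 0.40, limma adjusted p = 6.2e-04).

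H2-Oa (chr17:34092340-34095234), the alpha chain of H2-DO, did not pass any comparison. It was 3.77, 3.66 and 3.14 FPKM in Ctrl-IgG, 4.76, 5.27 and 4.43 in aCSF1R, 5.66, 5.33 and 2.64 FPKM in IL-10-Fc, and 3.52, 11.6 and 7.64 FPKM in BF10. Its highest values were in BF10 replicates 2 and 3, the same libraries in which H2-Ob, the beta chain of H2-DO and no member here, was 26.6 and 13.4 FPKM, against at most 0.45 FPKM in the other 10. The summed FPKM of 6 B cell markers (Ms4a1, Cd79a, Cd79b, Pax5, Cr2 and Fcer2a) was 149.5 and 80.4 in these 2 libraries and 0.50 to 8.16 in the other 10, and 1.19 in BF10 replicate 1. Ms4a1, the surface antigen CD20 of B cells, was 22.6 and 9.57 FPKM there and at most 0.41 FPKM elsewhere. Pax5 went otherwise, at 6.30 and 3.28 FPKM there, 2.59 to 4.49 FPKM without an IL-10 part and 0.01 to 0.09 FPKM in the rest. Of the 3 B cell markers tested, 0 were called higher in BF10 against Ctrl-IgG, and Pax5 was called lower in IL-10-Fc (-2.17, limma adjusted p = 0.011). With the FPKM sum as covariate, 1 was called higher in BF10, beside 3034 genes over the whole table. Without the 4 libraries of high FPKM sum, calls of higher B cell markers were also gained in BF10. In IL-10-Fc replicate 3, with a B cell sum of 1.16, H2-Oa was at its lowest while H2-Ab1 was 489 FPKM. Without BF10 replicate 1, H2-Oa was called in BF10 against Ctrl-IgG (1.21, limma adjusted p = 0.017), as against 0.81 (SE 0.36, limma adjusted p = 0.13) with all libraries. The part of B cell RNA in the H2-Oa values was not tested.

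**Figure D2:**
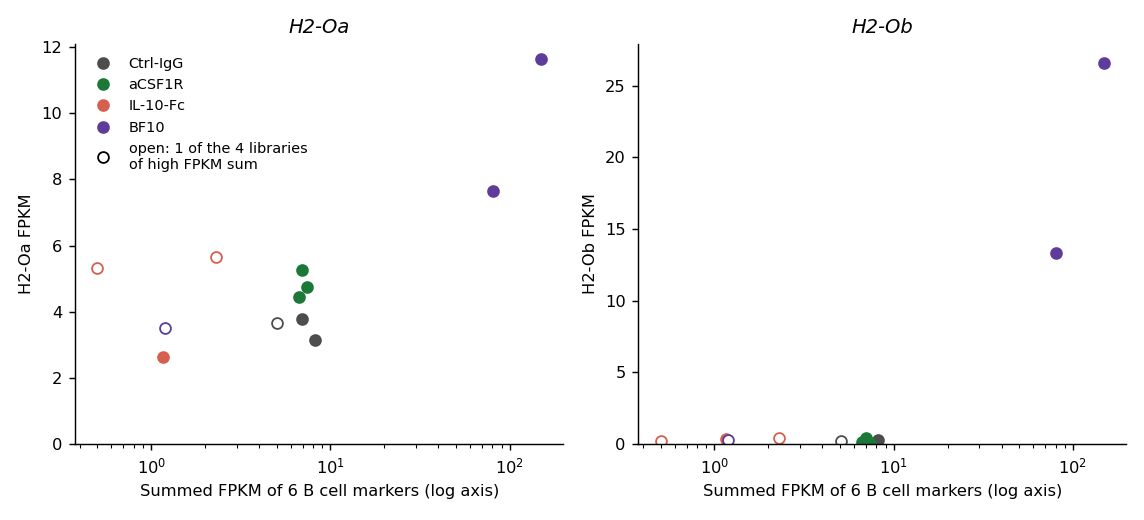
FPKM of H2-Oa and of H2-Ob against the summed FPKM of 6 B cell markers (log axis), 1 point per library, coloured by group and open for the 4 libraries of high FPKM sum. BF10 replicates 2 and 3 stand apart at sums of 149.5 and 80.4, while the other 10 libraries hold H2-Oa at 2.64 to 5.66 FPKM and H2-Ob at 0.45 FPKM or less.

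Read over the members, 6 of 10 were called higher in IL-10-Fc than in Ctrl-IgG, where 10.1% of all 15813 tested genes were called higher and 23.6% lower. In BF10 against Ctrl-IgG, 8 of 10 were called higher (background 11.8% higher and 13.2% lower). A call required an adjusted p under 0.05 and a fold of at least 1.5. The 6 were H2-Ea, H2-Eb1, H2-Aa, H2-Ab1, H2-DMb2 and Ciita, and H2-DMa and Cd74 joined them in BF10. Against aCSF1R, the same 6 members were called higher in BF10 (background 11.0% higher and 14.0% lower) and in IL-10-Fc (background 11.0% higher and 31.2% lower). No member was called lower in any comparison. These counts set the 6 libraries that went against their strain label beside the 6 that did not. Without BF10 replicate 3, which held both Xist and Eif2s3y, Cd74 lost its call in BF10 against Ctrl-IgG (2.37, limma adjusted p = 0.051). H2-Ea and H2-DMb2 passed the filter on low values only through the libraries with an IL-10 part, in which they had to be the higher ones to be tested. Without the filter, the counts were the same 6, 8, 6 and 6 members, beside 1407, 1645, 1544 and 1508 of 36540 genes called higher. These 6 were also the members whose 6 libraries with an IL-10 part all lay above the 6 without, as did 9.73% of tested genes, while 17.6% lay wholly below. The comparisons share control libraries, so their counts are not separate evidence. The median log2 fold change of the members was 2.13 in IL-10-Fc and 2.64 in BF10 against Ctrl-IgG, beside -0.39 and -0.12 over all tested genes. Median-of-ratios scaling moved the first of these all-gene medians to 0.01, and the split of called genes in IL-10-Fc from 1597 higher and 3729 lower to 2598 and 2612. With that scaling 9 members were called in IL-10-Fc and 9 in BF10, and over all genes 2269 were called higher and 2037 lower in BF10. Without the 4 libraries of high FPKM sum, an alternative chosen after the values were seen, more members were called higher in IL-10-Fc and BF10 against Ctrl-IgG. More genes over the whole table were also called there, in both directions, so the gain does not set the members apart. The single IL-10-Fc library then left was assumed to vary like the other groups. Without the 3 libraries of high keratinocyte sum, also chosen after the values were seen, a single aCSF1R library was left, likewise assumed to vary like the other groups. Fewer genes over the whole table were then called in IL-10-Fc and BF10 against Ctrl-IgG and against aCSF1R. H2-DMa then lost its call in BF10 against Ctrl-IgG (1.92, limma adjusted p = 0.057), H2-Ab1 lost both calls against aCSF1R (3.34 and 2.90, limma adjusted p = 0.055 and 0.066), and Ciita lost that in IL-10-Fc (2.10, limma adjusted p = 0.098). In whole tumour RNA, fewer cells of a type and less RNA per cell cannot be told apart.

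For the antibody alone, no member passed the test. Against Ctrl-IgG, 0 of 10 members were called in aCSF1R (background 0% in each direction). An unadjusted p under 0.05 was given by limma to 0 members and to 437 of all 15813 tested genes. The 95% intervals of the log2 fold change ran from -1.02 to 0.78 for H2-Ea, -0.99 to 0.76 for H2-Aa, -0.35 to 1.61 for H2-DMa and -0.72 to 2.16 for Cd74, so changes of moderate size were not detectable with 3 libraries a group. The antibody part on top of the cytokine is read from BF10 against IL-10-Fc, where again 0 of 10 members were called (background 0.00632% higher). An unadjusted limma p under 0.05 fell to 0 members and to 828 of all tested genes. The estimates were 0.85 for Cd74 (95% interval -0.59 to 2.30), 0.83 for Ciita (95% interval -0.05 to 1.71) and -0.76 for H2-Ea (95% interval -1.66 to 0.15), so that none of the 10 members was shown either to differ or to be alike. How far BF10 departed from the added effects of aCSF1R and IL-10-Fc was taken as the interaction on the log2 scale. It was likewise not called for any member (background 0.00632% higher). An unadjusted limma p under 0.05 was found for 0 members and for 412 of all tested genes. The estimates of the interaction ran from -0.64 (SE 0.58) for H2-Ea to 0.42 (SE 0.57) for Ciita. With such backgrounds, counts of 0 among 10 do not set the members apart.

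**Figure D3:**
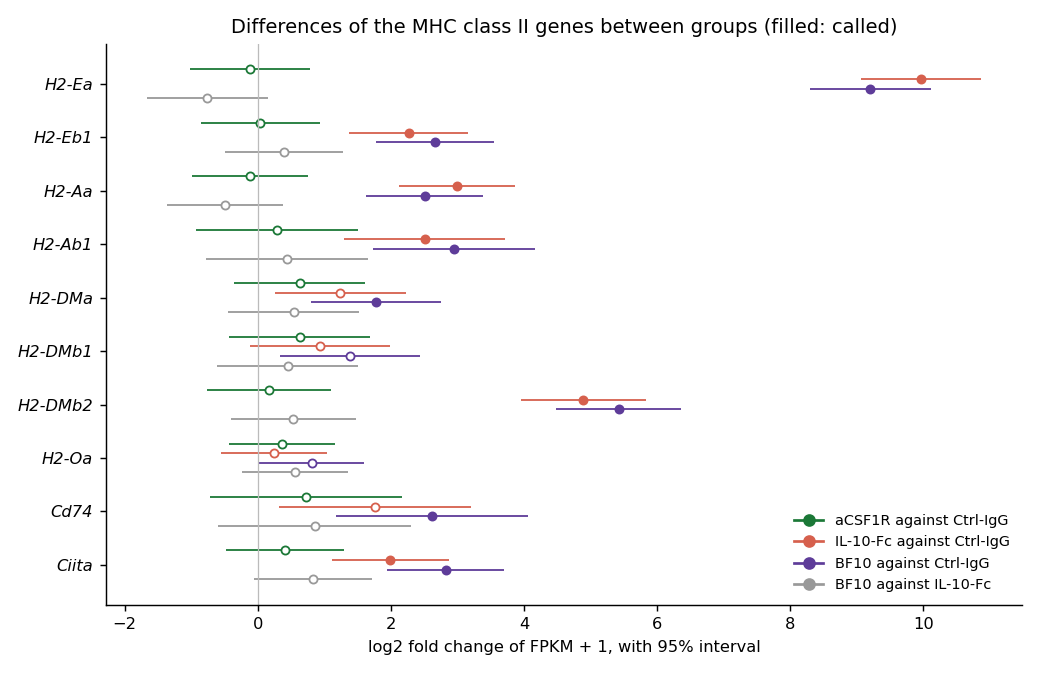
Log2 fold changes of log2(FPKM + 1) with 95% intervals from limma for the 10 members in 4 comparisons, filled where called. All intervals of aCSF1R against Ctrl-IgG and of BF10 against IL-10-Fc cross 0, and those of H2-Ea and H2-DMb2 against Ctrl-IgG lie farthest to the right.

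Ratios between the chains were taken within a library, which removes any scaling of the library. For 9 ratios, both factors of the design were tested by two-sided exact permutation within the levels of the other factor (400 arrangements, smallest possible p 0.005), with Benjamini-Hochberg adjustment over the 18 tests. The H2-Ea/H2-Eb1 ratio of FPKM was at most 0.0044 in the 6 libraries without an IL-10 part. With IL-10-Fc it reached 4.54, 7.17 and 0.905, and with BF10 2.98, 0.942 and 0.963. The 3 libraries outside the set of high FPKM sum thus lay between 0.905 and 0.963, and the 3 within it between 2.98 and 7.17. Its log2 differed by 10.31 between libraries with and without an IL-10 part (exact permutation p = 0.005, adjusted p = 0.018), and by -1.13 for the CSF1R antibody part (exact permutation p = 0.080, adjusted p = 0.17). Since H2-Ea was near 0 in the libraries without an IL-10 part, the size of the first difference depends on the 0.01 FPKM added to each gene, and was 7.20 with 1 FPKM added. Compared with the alpha chain of I-A, H2-Ea/H2-Aa stood at 0.959, 1.08 and 0.693 with IL-10-Fc, and at 0.851, 0.716 and 0.679 with BF10. Per length, the alpha chains thus stood at a ratio of 0.679 to 1.08 in every library with an IL-10 part. The ratio was 0.851 to 1.08 in the 3 of high FPKM sum and 0.679 to 0.716 in the other 3, without overlap. The log2 of H2-Ea/H2-Aa differed by 9.95 for the IL-10 part (exact permutation p = 0.005, adjusted p = 0.018), and by 6.83 with 1 FPKM added.

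H2-Aa/H2-Ab1 parted the libraries by FPKM sum. Its values were 2.64, 9.01 and 2.13 for Ctrl-IgG, 2.86, 2.42 and 3.09 for aCSF1R, 8.29, 9.75 and 1.66 for IL-10-Fc, and 7.33, 1.57 and 1.67 for BF10. The 4 libraries of high FPKM sum lay between 7.33 and 9.75 and the other 8 between 1.57 and 3.09. For the IL-10 part, the log2 of this ratio differed by 0.21 over all libraries (exact permutation p = 0.69, adjusted p = 0.73). Among the 8 other libraries, the 3 with an IL-10 part lay at 1.57 to 1.67 and the 5 without at 2.13 to 3.09. H2-Eb1/H2-Ab1, the ratio of the beta chains, was narrower, at 1.18 to 2.57 over all 12 libraries and 1.18 to 1.58 outside the set of high FPKM sum. Outside that set, the 3 libraries with an IL-10 part lay at 1.18 to 1.27 and the 5 without at 1.40 to 1.58. Over all libraries, the log2 difference of H2-Eb1/H2-Ab1 was -0.15 for the IL-10 part (exact permutation p = 0.47, adjusted p = 0.56) and -0.15 for the antibody part (exact permutation p = 0.45, adjusted p = 0.56). H2-Eb1/H2-Aa, of one chain from each molecule, was 0.151 to 0.285 in the 4 libraries of high FPKM sum and 0.469 to 0.766 in the other 8. Among these 8, the 3 with an IL-10 part lay at 0.705 to 0.766 and the 5 without at 0.469 to 0.655. The part that the mitochondrial and short-gene shares of the 4 libraries have in these ratios was not tested.

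H2-DMb2/H2-DMb1 was 0.014 to 0.034 without an IL-10 part and 0.801 to 1.06 with one. This ratio kept its level across the library sets, at 0.801 to 1.06 and 0.885 to 1.04 for the 3 libraries with an IL-10 part inside and outside the set of high FPKM sum. Its log2 differed by 5.36 (exact permutation p = 0.005, adjusted p = 0.018). Cd74/H2-Ab1 was the only ratio tested that passed for both factors. Its values were 4.01, 3.10 and 3.25 for Ctrl-IgG, 4.90, 4.65 and 4.30 for aCSF1R, 1.79, 1.70 and 2.69 for IL-10-Fc, and 2.56, 2.78 and 2.71 for BF10. Its log2 was lower by -0.78 with an IL-10 part (exact permutation p = 0.005, adjusted p = 0.018) and higher by 0.42 with the antibody part (exact permutation p = 0.010, adjusted p = 0.030). The latter missed the threshold without any one aCSF1R or BF10 library (adjusted p = 0.075 to 0.090, exact permutation) and was 0.19 without the 4 libraries of high FPKM sum. H2-Oa/H2-DMa was 0.025 to 0.154 with an IL-10 part and 0.106 to 0.233 without, a log2 difference of -0.83 (exact permutation p = 0.055, adjusted p = 0.14). It passed only without IL-10-Fc replicate 2 (-1.10, adjusted p = 0.026, exact permutation).

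**Figure D4:**
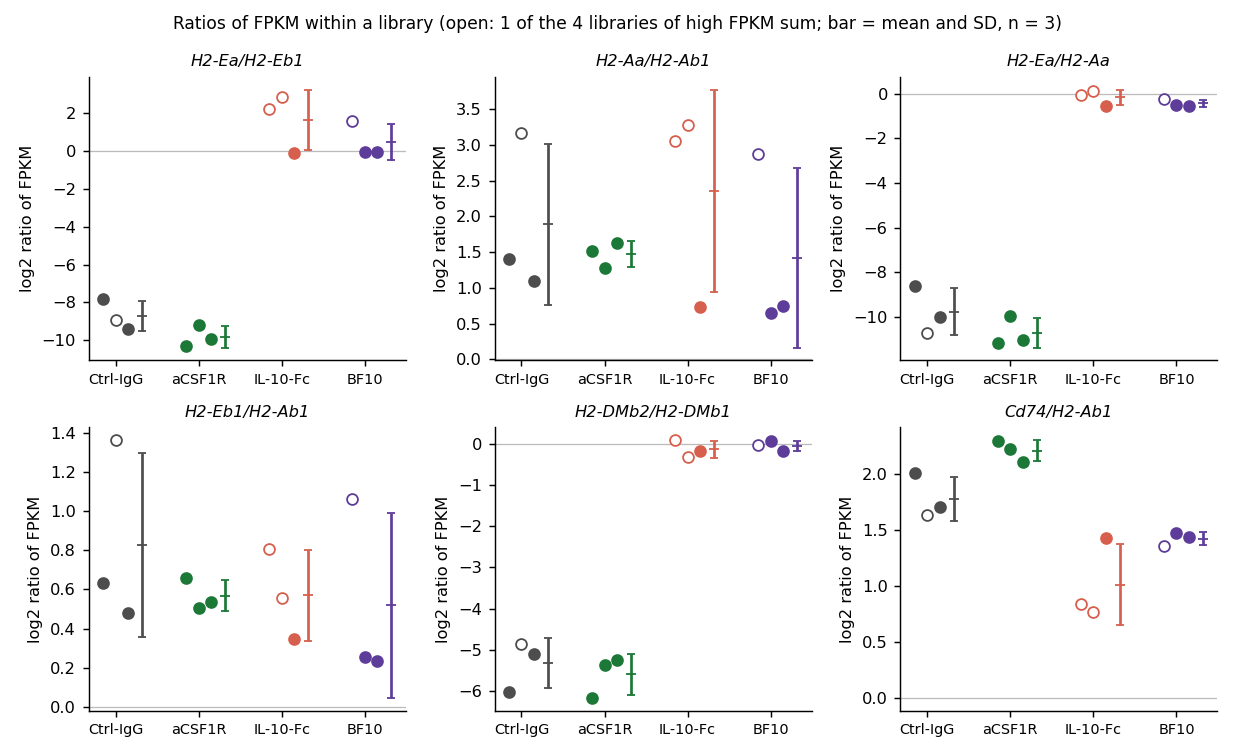
Log2 ratios of FPKM within a library for 6 pairs of members, by group, with 1 point per library, open for the 4 libraries of high FPKM sum, and a bar at the mean and SD of 3 libraries. H2-Ea/H2-Eb1, H2-Ea/H2-Aa and H2-DMb2/H2-DMb1 part the groups with an IL-10 part from those without, and H2-Aa/H2-Ab1 parts the open from the filled points.

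The factors that work with Ciita, and the pathway that induces it, were counted next. Of 10 genes for class II transcription, such as Rfx5, Rfxap and Rfxank of the RFX complex and Nfya, Nfyb and Nfyc of NF-Y, 0 were called higher in IL-10-Fc or BF10 against Ctrl-IgG by limma. Rfxank was called higher in IL-10-Fc with median-of-ratios scaling (1.10) and quantile normalization (1.04), and in BF10 with the FPKM sum as covariate (0.71), as was Crebbp in BF10 without the 4 libraries of high FPKM sum (0.66), where Rfxap was called lower (-0.60). Rfxap (log2 fold change -1.26) and Nfyc (-0.77) were called lower in IL-10-Fc, and both calls were lost with median-of-ratios scaling (-0.80 and -0.28) and without the 4 libraries of high FPKM sum (-0.39 and -0.16). Creb1, a factor of the X box, and Nfyb parted the libraries by FPKM sum, at 13.2 to 18.4 and 31.3 to 35.9 FPKM in the 4 libraries and at 6.13 to 12.1 and 17.1 to 24.6 FPKM in the other 8. Of 9 genes of the interferon gamma axis, 1, Jak2, was called higher in IL-10-Fc and in BF10 against Ctrl-IgG, and 0 lower. The count of higher calls is near the share of all genes. With the FPKM sum as covariate, 2 were called higher in each, where 2741 and 3034 genes were called higher over the whole table. Without the 4 libraries of high FPKM sum, calls were gained in both directions. Jak2, a kinase of the interferon gamma receptor, was 15.1 to 23.5 FPKM without an IL-10 part and 76.0 to 161 FPKM with one. It rose by 2.72 in IL-10-Fc and 2.40 in BF10. Irf1, a transcription factor that drives Ciita, was 138 to 209 FPKM without and 78.2 to 159.6 FPKM with an IL-10 part. Ifng itself stood at 0.89 to 2.57 FPKM in all 12 libraries.

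Among 12 genes of antigen processing, 1 was called higher and 2 lower in IL-10-Fc against Ctrl-IgG, and 1 higher and 1 lower in BF10. These counts are near the shares of all tested genes. Over 5 alternatives, 1 to 4 were called lower in IL-10-Fc and 0 to 2 in BF10. Ctsh, the aminopeptidase cathepsin H, rose by 1.41 and 1.56. Ifi30, the thiol reductase of the loading compartment, fell by 1.64 and 0.88, and Lamp1, a lysosomal membrane protein, fell by 1.36 in IL-10-Fc, a call that was lost after rescaling to TPM (-1.57). The call of Ifi30 in BF10 was lost after rescaling to TPM (-0.85) and after quantile normalization (-0.76). Ctss, which trims the invariant chain, was 829, 739 and 282 FPKM with IL-10-Fc, and 555, 347 and 407 FPKM with BF10, against 120 to 453 FPKM without an IL-10 part, and was called for both when set against aCSF1R but for neither against Ctrl-IgG. Of the 7 genes for traffic and control of class II molecules, 6 were tested. In IL-10-Fc 0 were called higher and 1, Rab7, lower (-1.23, and -0.72 without a call under median-of-ratios scaling). In BF10 0 were called. With the FPKM sum as covariate, 1 was called higher in each.

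Markers of antigen-presenting cells were set beside the members. The summed FPKM of 10 macrophage markers was 421 to 786 in Ctrl-IgG, 250 to 278 in aCSF1R, 821 to 1249 in IL-10-Fc and 1034 to 1175 in BF10. C1qa, C1qb and C1qc made up most of the sum, at 399, 169 and 571 FPKM in IL-10-Fc replicate 1. Single log2 fold changes in IL-10-Fc against Ctrl-IgG ran from -0.93 for Mertk to 1.52 for C1qc. They were below 0 for Adgre1, Cd68, Mertk and Itgam. Of these markers, 3 of 10 were called higher in IL-10-Fc and in BF10 against Ctrl-IgG, namely Mrc1, C1qa and C1qc, and 0 were called in aCSF1R. The same 5 alternatives gave 1 (without the 4 libraries of high FPKM sum) to 6 (FPKM sum as covariate) in IL-10-Fc and 3 to 6 in BF10. The sum of 10 dendritic cell markers was 10.9 to 19.7 in Ctrl-IgG, 12.8 to 15.8 in aCSF1R, 9.26 to 22.1 in IL-10-Fc and 11.6 to 30.5 in BF10. Of these, Xcr1 stood at 0 to 0.36, Clec9a at 0.18 to 1.51 and Itgax at 1.91 to 13.1 FPKM. Against Ctrl-IgG, 1 of the 5 tested, Siglech, was called higher in BF10 (1.11) and 0 in IL-10-Fc. With the FPKM sum as covariate, 1 was called higher in IL-10-Fc. Without the 4 libraries of high FPKM sum, more dendritic cell markers were called higher in BF10, and calls in both directions were gained in IL-10-Fc. The summed FPKM of 8 T cell markers was 53.6 to 109 in BF10 and 26.2 to 44.2 in the other groups, and of the 7 of them tested 4 were called higher in BF10 against Ctrl-IgG and 0 in IL-10-Fc. These counts ran from 2 (TPM) to 6 (FPKM sum as covariate, or without the 4 libraries) in BF10 and from 0 to 2 (median-of-ratios scaling) in IL-10-Fc, where 2 were called lower without the 4 libraries. Ptprc, the common leukocyte antigen CD45, was 14.3 to 43.2 FPKM without and 19.6 to 49.98 FPKM with an IL-10 part. Divided by Ptprc in the same library, H2-Ab1 was 0.643 to 4.73 without and 4.23 to 24.9 with an IL-10 part, and H2-Aa 5.57 to 12.9 and 16.7 to 41.3. Set against Ptprc, H2-Ea, H2-Aa and H2-DMb2 did not overlap between these libraries. H2-Ab1, H2-Eb1 and Ciita did, although their FPKM had not. H2-Eb1 reached 7.10 in aCSF1R replicate 1 and was 6.21 in IL-10-Fc replicate 2. The share of all genes that would separate in this way was not taken. Whether tumour cells or leukocytes carried the class II transcripts was not tested.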

How the data were processed

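RNA was extracted from tumour tissue with Trizol and sequenced after TruSeq stranded mRNA preparation, with reads of 75 bases. Per the submitters' processing notes, the authors used STAR 2.7.5a, RSEM 1.3.3 and DESeq2 1.30.0 on mm10 (GRCm38). The deposited FPKM values per gene were used as given, and 4 deposited tables of the authors' own comparisons (fold changes and p-values) were not used. limma 3.58.1 in R 4.3.3 was run on log2(FPKM + 1) over the 15813 genes that reached 1 FPKM in 3 or more libraries, with 1 mean per group, an intensity trend, and Benjamini-Hochberg adjustment over all tested genes. Ratios had 0.01 FPKM added to each gene. No 2 libraries were identical. Read depth relative to 1 library was 0.944 to 1.41. All tests were tried on simulated data first. Alternatives were another scaling (median-of-ratios, TPM, quantile), pseudocount, filter or covariate, a term for the number in the sample titles, the groups compared alone, and each library or 1 of 2 sets of libraries left out. All 10 members are named in every comparison, and genes of other lists by their calls. Lists were used less 2 genes that are not reported here. The members, lists and tests were chosen with earlier results of these data known. Promoter windows came from RefSeq (GRCm38.p6) and positions from GENCODE M21.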

Additional observations from a re-analysis of the deposited data

How the results depend on the processing

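Of 160 alternative counts of members called, 159 stayed within 1.5 times the reported count. The exception was BF10 against aCSF1R without the 4 libraries of high FPKM sum, where more than the reported 6 members were called. H2-DMa, H2-DMb1, H2-Oa and Cd74 stood there at 1.48, 1.17, 0.85 and 2.43. More genes over the whole table were called in that fit as well. Leaving out 1 library gave 6 to 10 members for BF10 against Ctrl-IgG. It was 10 without BF10 replicate 1, and 6 without BF10 replicate 2 or Ctrl-IgG replicate 2. Over all genes, 2004, 1258 and 1417 were called higher in these fits, in that order, as against 1859 with all libraries. Leaving out 1 library gave 6 to 8 members for IL-10-Fc against Ctrl-IgG and for BF10 against aCSF1R. Over all genes, 1154 to 2093 and 1133 to 2143 were then called higher, in that order. For IL-10-Fc against aCSF1R, leaving out 1 library gave 6 members, beside 1212 to 2460 genes called higher. For the remaining comparisons it gave 0 members. Of 1600 single fold changes, 50 gained and 10 lost a call, and 0 of those called in either fit changed sign. Estimates without a call did change sign. Cd74 in BF10 against IL-10-Fc, at 0.85, ran from -0.13 to 1.52, and H2-DMb1 in IL-10-Fc against aCSF1R, at 0.31, from -0.15 to 1.23. Ciita in IL-10-Fc against aCSF1R lost its call after rescaling to TPM (1.43, limma adjusted p = 0.055). Without the 4 libraries the log2 ratios for the IL-10 part were 9.10 (H2-Ea/H2-Eb1), 9.48 (H2-Ea/H2-Aa), 8.83 (H2-Ea/H2-Ab1), 5.46 (H2-DMb2/H2-DMb1) and -0.59 (Cd74/H2-Ab1), and 0.19 for Cd74/H2-Ab1 and the antibody part. All 6 missed the threshold there, at an adjusted exact permutation p of 0.067, since 30 arrangements give no p under 0.033. Leaving out 1 library gave 0.36 to 0.52 for Cd74/H2-Ab1 and the antibody part and -1.10 to -0.44 for H2-Oa/H2-DMa and the IL-10 part. Within libraries whose title number was 5 to 7, Cd74/H2-Ab1 differed by -0.46 for the IL-10 part, and H2-Oa/H2-DMa by 1.23 for the antibody part as against -0.04 overall. The causes were not tested. No paired analysis was possible because replicate numbers follow accession order, and of the first numbers in the titles only 6 is shared across groups, by 1 library each of aCSF1R, IL-10-Fc and BF10 and by none of Ctrl-IgG. Absolute read depth is unknown, so values under 1 FPKM, such as those of H2-Ea without an IL-10 part, have no counting error attached.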

Other observations

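Across the 12 libraries, the members whose log2(FPKM + 1) ran closest to Ciita were H2-Eb1 (Pearson r 0.97), H2-Ab1 (0.96) and H2-DMb2 (0.96), and the least close were H2-Aa (0.78) and H2-Oa (0.50). These points share groups and library sets, so the values are a description. Among named genes that are no members, Vwa7 and Cxcr3, the chemokine receptor of activated T cells, ran closest to Ciita (0.98 each). Ngef and Sgms1 ran closest to H2-Ab1 (0.99 each). Gbp2b, an interferon-induced GTPase, was among the 5 closest to H2-Ea (0.995), at levels that also part the libraries with an IL-10 part from those without. Cd74 followed H2-Ab1 (0.95) more closely than H2-Aa did (0.78), although H2-Aa and H2-Ab1 encode the chains of one molecule.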
